A study of Mus musculus with 13 samples.

Results

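The metallothioneins are small, cysteine-rich proteins that bind zinc and copper. 4 metallothionein genes, Mt1, Mt2, Mt3 and Mt4, were followed together with Mtf1 and Slc30a1, by these symbols, in single-cell RNA sequencing of colon tumors and adjacent mucosa, so that 6 of the 32285 genes in the count tables are described. The 6 genes were picked with their levels by cell type and tissue already known, and those levels are therefore given as a description, with no test. There were 13 libraries, from 10 colon tumors and from the normal mucosa beside them (3 samples), of 3 C57BL/6J mice. All 3 mice carried the germline ApcMin/+ mutation and p16cis/cis, an engineered epimutation of the p16 gene, and all ate an NIH-31 diet supplemented with choline, betaine, folic acid and vitamin B12, so genotype and diet were the same in tumor and mucosa. Mouse A, 24 weeks old, gave tumors 5 to 8 and mucosa 2, mouse B, 23 weeks old, gave tumors 9 and 10 and mucosa 3, and mouse C, 20 weeks old, gave tumors 1 to 4 and mucosa 1. Tumors of 1 mouse share the animal, and each tissue had its own dissociation (a tumor dissociation kit, or EDTA followed by TrypLE for mucosa), so tissue and dissociation cannot be told apart.

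Metallothionein transcription is driven by MTF-1, the zinc-sensing factor encoded by Mtf1, which binds metal response elements in promoters, and by glucocorticoid and stress signals. Mt1 and Mt2 are inducible in most tissues and buffer free zinc in the gut epithelium. Mt3 is best known from neurons and Mt4 from stratified squamous epithelium. Slc30a1 encodes the zinc exporter of the plasma membrane and is itself a target of MTF-1.

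The tumor libraries held 57.2 to 93.2 M unique molecular identifiers (UMIs, each counting 1 captured transcript, with M for 1000000) and the mucosa libraries 84.9 to 116 M. After filtering, 108500 of 137591 barcodes were kept as cells, 85957 from tumors and 22543 from mucosa. Median UMIs per cell were 3551 to 4981 in tumors and 7198 to 9454 in mucosa. Any pair of libraries shared 9 to 33 cell barcodes, at most 0.358% of the smaller library. The labels call 7 of the 13 libraries female, with both sexes under the same animal code, but all 13 carried RNA of the 4 Y-linked genes examined (summed 104 to 129 CPM) and at most 0.127 CPM of Xist, so sex was not used. Levels are given as CPM, the UMIs of a gene per 1000000 UMIs of the cells named, with clusters found without the 6 genes and the pathway genes named below among the clustering genes. With 3′ counting each transcript is counted once whatever its length, so CPM is not scaled by length. Whether the genes were captured and mapped equally well was not tested, so CPM of different genes compare only roughly.

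In GENCODE vM21 (GRCm38) the 4 metallothionein genes lie in a row on the plus strand of chromosome 8 within 43.1 kb. Mt4 (ENSMUSG00000031757) spans chr8:94137197-94139031, Mt3 (ENSMUSG00000031760) chr8:94152607-94154146, Mt2 (ENSMUSG00000031762) chr8:94172664-94173568 and Mt1 (ENSMUSG00000031765) chr8:94179082-94180327. The gaps between them are 13.6 kb from Mt4 to Mt3, 18.5 kb from Mt3 to Mt2 and 5.51 kb from Mt2 to Mt1. Mtf1 (ENSMUSG00000028890, chr4:124802104-124849800) and Slc30a1 (ENSMUSG00000037434, chr1:191906767-191913247) lie on other chromosomes, also on the plus strand.

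Counts of the 4 metallothioneins could be separated by sequence, since no 31-base stretch of their transcripts was common to any 2 of the 6 genes, and the longest run shared between 2 metallothioneins was 27 bases (Mt1 and Mt3). Of the 31-base stretches of Mt2, 58.1% also lie in Gm45774, an antisense gene across Mt2, or in Pip5k1a. Gm45774 had 181 UMIs beside 38913 of Mt2 in tumor epithelium and 42 beside 13613 in mucosa epithelium. The antisense gene 1110065P20Rik overlaps Mtf1 and had more UMIs than Mtf1, 15417 against 4769 in tumor epithelium. Per the study's methods Cell Ranger was run with default settings, under which reads of 3′ libraries are counted in the sense direction of a gene, so that genes on opposite strands are counted apart.

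The sequences just before the first annotated start of the metallothionein genes are shown. The text below turns on how differently these neighbors were expressed, and MTF-1 binds in promoters. The printed sequences stop before that start, so promoter matches past it are not shown. They are from RefSeq (GRCm38.p6, plus strand, 5′ to 3′), at chr8:94178839-94179081 for Mt1, chr8:94172368-94172617 for Mt2, chr8:94152357-94152606 for Mt3 and chr8:94136954-94137196 for Mt4. Capitals mark matches to the core of the metal response element, searched as TGCACNC and TGCGCNC on both strands.
Mt1: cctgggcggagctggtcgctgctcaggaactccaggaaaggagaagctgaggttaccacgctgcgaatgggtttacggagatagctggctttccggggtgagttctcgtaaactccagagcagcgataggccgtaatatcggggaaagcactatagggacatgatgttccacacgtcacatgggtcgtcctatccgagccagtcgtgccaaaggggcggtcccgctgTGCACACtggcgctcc
Mt2: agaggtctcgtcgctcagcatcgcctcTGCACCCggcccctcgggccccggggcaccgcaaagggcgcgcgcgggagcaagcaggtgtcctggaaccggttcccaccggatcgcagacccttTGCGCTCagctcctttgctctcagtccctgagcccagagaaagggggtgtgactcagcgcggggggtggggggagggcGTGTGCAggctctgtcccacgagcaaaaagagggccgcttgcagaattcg
Mt3: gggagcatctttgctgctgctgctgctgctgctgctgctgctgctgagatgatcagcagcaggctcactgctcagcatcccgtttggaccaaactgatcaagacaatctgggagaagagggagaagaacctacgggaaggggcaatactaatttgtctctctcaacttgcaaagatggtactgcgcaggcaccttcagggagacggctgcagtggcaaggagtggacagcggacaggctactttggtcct
Mt4: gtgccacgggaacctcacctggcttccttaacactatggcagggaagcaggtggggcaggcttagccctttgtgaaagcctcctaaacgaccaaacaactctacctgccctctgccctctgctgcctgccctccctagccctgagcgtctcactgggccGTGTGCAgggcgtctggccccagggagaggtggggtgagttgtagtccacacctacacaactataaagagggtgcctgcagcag

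In the window of 300 bases around the RefSeq start, Mt2 had 4 matches, Mt1 had 3, and Mt3 and Mt4 had 1 each. The part before the first annotated start is printed. It holds 3 of the matches of Mt2, 1 of Mt1, 1 of Mt4 and 0 of Mt3. In the window Slc30a1 had 2 matches and Mtf1 had 0. Of all 32851 promoter windows of this length, 25.7% had at least 1 match, 7.11% at least 2, 1.97% at least 3 and 0.517% at least 4. A match describes the letters only.

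Mt4, the metallothionein of squamous epithelium, had the largest difference between tumor and mucosa epithelium of the 6 genes. Over all epithelial cells of a library, Mt4 ranged from 89.3 CPM (tumor 6) over a median of 520 to 1480 CPM (tumor 1) in the 10 tumors. In mucosa 1, 2 and 3 it was 0.153, 0.838 and 0.229 CPM. Every tumor lay above every mucosa sample. The mean was 574 ± 422 CPM (SD, n = 10) in tumors against 0.407 ± 0.375 CPM (n = 3) in mucosa. In UMIs this was 162924 in tumors and 88 in mucosa (9, 61 and 18 in the 3 samples), a ratio per UMI of 1398 with a 95% interval of 1134 to 1743 for counting error. Of the 61 UMIs of mucosa 2, 43 came from 1 cell, which fell in the cluster led by Mt4, while the next mucosa cell had 5. Without that cell mucosa 2 had 0.247 CPM and the ratio was 2733 (95% interval 2043 to 3747), and without mucosa 2 as a whole it was 2978. In the edgeR fit the log2 fold change of Mt4, tumor over mucosa, was 10.14 (SE 1.25). Here and below, SE is the absolute log2 fold change divided by the square root of the F statistic of the fit. It was not estimated separately, and for the 6 genes no test is read from it.

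Mt3, the neuronal metallothionein, was also high in tumor epithelium but had a source in mucosa. It ranged from 111 CPM (tumor 10) over a median of 469 to 1311 CPM (tumor 1) in the tumors. Mucosa 1, 2 and 3 had 126, 19.3 and 23.4 CPM. Tumor 10 lay below mucosa 1, so the groups overlapped, although each of the 10 tumors was above the mucosa of its own mouse. The mean was 514 ± 337 CPM in tumors against 56.3 ± 60.6 CPM in mucosa, with 148262 and 10659 UMIs. The ratio per UMI was 10.5 (95% interval 10.3 to 10.7) and was 24.9 without mucosa 1. The log2 fold change was 2.91 (SE 0.77).

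Mt2 and Mt1, the widely inducible pair, differed less between the tissues. Mt2 ranged from 38.6 CPM (tumor 10) over a median of 146 to 204 CPM (tumor 1) in tumor epithelium. In mucosa 1, 2 and 3 it was 86.6, 58.8 and 53.9 CPM. Of the 10 tumors, 9 were above their own mucosa, with tumor 10 below. The log2 fold change of Mt2 was 0.79 (SE 0.38).

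Mt1 ranged from 216 CPM (tumor 10) over a median of 422 to 630 CPM (tumor 1) in tumor epithelium. Mucosa 1, 2 and 3 had 524, 354 and 325 CPM, within the range of the tumors. Its log2 fold change was -0.24 (SE 0.25), and 0.05 when libraries were scaled by their totals without TMM, the edgeR factors that correct for composition, so its sign depended on the scaling. That change of scaling moved the median over all genes by 0.28.

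The 2 genes of zinc control were not higher in tumors in the sums over all epithelial cells. Mtf1 ranged from 13.3 over a median of 17.0 to 24.7 CPM in tumor epithelium and was 15.6, 19.4 and 20.6 CPM in mucosa, with a log2 fold change of -0.37 (SE 0.16) that was -0.10 without TMM. Slc30a1, the exporter, ranged from 4.28 (tumor 3) over a median of 6.55 to 10.1 CPM (tumor 6) in tumors. Mucosa 1, 2 and 3 had 5.91, 15.8 and 17.8 CPM. Tumors 5 to 10 were above mucosa 1, which came from another mouse, but all 10 tumors were below their own mucosa. The log2 fold change of Slc30a1 was -1.23 (SE 0.29). Epithelial cells outside the named classes went the other way. There Slc30a1 was 7.94 ± 2.90 CPM in tumors and 5.32 ± 1.54 CPM in mucosa, with all 10 tumors above their own mucosa. Mtf1 there was 22.2 ± 5.6 and 16.4 ± 2.1 CPM, with 9 of 10 above. The tissues differed in the clusters of these cells. A cluster led by Defb45 held 1362 of 1621 tumor cells but 501 of 9905 mucosa cells. Within it Mtf1 was 22.7 ± 6.8 CPM in tumors and 24.6 ± 9.7 CPM in mucosa, with 3 of 10 above. Slc30a1 within it was 8.76 ± 3.37 and 4.84 ± 2.71 CPM, with 10 of 10 above. Absorptive cells, described below, held 14.5% of the UMIs of mucosa and 2.24% of those of tumors (mean over mice). Their part in the sums was not tested. All 6 genes passed the filter on low counts. Of them, Mt4 was the one whose tumor and mucosa libraries did not overlap in the epithelial sums, where 46.4% of all 15484 genes tested did not overlap (33.8% with tumors higher), and nothing is read from that count since this contrast chose the genes.

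**Figure D1:**
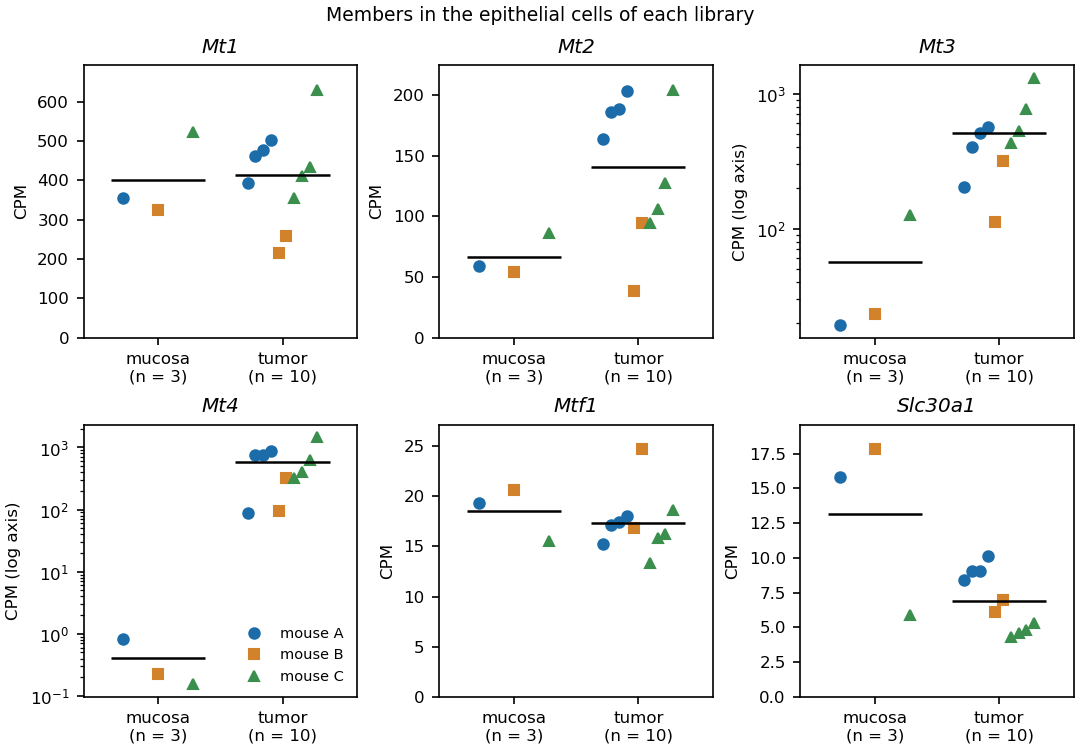
CPM of each of the 6 genes in the epithelial cells of each library, 1 point per library, grouped by tissue, with marker shapes for the mouse and a black line for the mean. The axes of Mt3 and Mt4 are logarithmic and the others start at 0. For Mt4 the 10 tumors sit at 89.3 CPM or more and the 3 mucosa samples below 1 CPM, while for Mt1 the 3 mucosa samples (325 to 524 CPM) lie within the range of the tumors.

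The epithelial sums of the tissues differed in their mix of cells. Goblet cell markers summed to 1361 to 10404.5 CPM in tumors and 18561 to 38935 CPM in mucosa. When the tumor epithelial-like clusters were left out, the log2 fold change, tumor over mucosa, was 5.02 for Mt4 and turned to -1.88 for Mt3 and -0.64 for Mt2, with -0.62 for Mt1, 0.32 for Mtf1 and -0.72 for Slc30a1. The tumor cells left had little Mt4, 3.49 ± 2.87 CPM in absorptive epithelial-like and 2.20 ± 2.0 CPM in other epithelial cells (0.479 and 0.143 CPM in mucosa), a level at which no expression is read in leukocytes below, and 23.6 CPM in Paneth-like cells, of which 761 came from tumors and 3 from mucosa. A list of 8 immune markers summed to at least 33.4 CPM (median 63.9) in the epithelial cells of tumors and 13.9 to 15.5 CPM in those of mucosa, with none of the 8 at 0. A list of 8 neutrophil markers summed to 246 to 814 CPM against 6.81 to 22.2 CPM. Their part in the levels above was not tested. Of 9 markers of stratified squamous epithelium, where Mt4 is normally found, all 9 had at least 1 UMI in tumor epithelium, with a summed 17.4 to 39.1 CPM against 1.67 to 3.61 CPM in mucosa, where Krt5, Trp63, Krtdap and Ivl were at 0. In the tumor epithelial-like clusters, beside 162435 UMIs of Mt4, the list had 2713 UMIs of Krt15, 1354 of Krt14, 1037 of Krt13, 874 of Krt4, 382 of Dsg3, 43 of Ivl, 8 of Krtdap, 3 of Trp63 and 1 of Krt5. Per 1000000 UMIs these were 12.8 CPM for Krt15 and at most 6.41 CPM for the others.

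Next, the levels were resolved by cell class. Nearly all Mt3 and Mt4 of the tumors lay in tumor epithelial-like cells, 3 clusters of 12751 tumor cells marked by Wnt targets such as Nkd1, Wif1 and Notum. These cells supplied 97.2% ± 1.0 of the Mt4 UMIs of a tumor and 96.4% ± 1.1 of the Mt3 UMIs (mean ± SD over 3 mice). Their mean levels over mice were 638 ± 322 CPM of Mt4 and 590 ± 345 CPM of Mt3. Among the other named classes, Paneth-like cells had 23.6 CPM of Mt4 and 40.6 CPM of Mt3. Erythrocyte-like cells had a mean of 34.7 CPM of Mt4, which rests on the 198 CPM of tumor 4, since the other 3 tumors had at most 8.64 CPM. For Mt3 the range over tumors, 230 to 1457 CPM, lay above that of every other named class, but an unnamed low-depth cluster described below ran from 336 to 1748 CPM. For Mt4 tumor 6 was lowest with 129 CPM, below the erythrocyte-like cells of tumor 4, so those classes overlapped.

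Low Mt3 and Mt4 counts were found in leukocytes as well. In B cells, plasma cells, neutrophils, monocytes, macrophages, dendritic cells and T cells of the tumors, Mt3 was at 0.307% to 1.08% and Mt4 at 0.191% to 0.819% of the level in tumor epithelial-like cells. The epithelial secreted factor Ptn was at 0.148% to 0.588% in the same classes. Mt3 UMIs per Mt4 UMI were 0.907 in tumor epithelial-like cells, 0.868 in neutrophil-like cells, and 0.998 and 1.04 in C1q and Inhba macrophage-like cells, but 2.22 in T cell-like and 2.66 in plasma cell-like cells. Over all leukocytes of mucosa Mt3 was 5.51 ± 1.07 CPM, within the 1.30 to 8.57 CPM of those of tumors, although the mean Mt3 of the epithelium was lower in mucosa. Mt4 was 0.0879 ± 0.152 CPM there (1 UMI) against 4.20 ± 3.39 CPM in tumors. No expression is read from levels this low, and the part of free RNA in them was not tested.

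Mt1 had a different distribution. The means of macrophage-like, monocyte-like and dendritic cell-like cells were above that of the tumor epithelium. Neutrophil-like cells, at 98.8 ± 8.6 CPM, were below it. In tumors, Inhba macrophage-like cells led with 1611 ± 75 CPM (mean ± SD over 3 mice), followed by C1q macrophage-like cells with 1278 ± 278 CPM. Ly6c monocyte-like cells had 773 ± 63 CPM, dendritic cell-like cells 624 ± 75 CPM and tumor epithelial-like cells 430 ± 127 CPM. Over the tumors these classes ran from 469 to 1109, 448 to 826 and 276 to 657 CPM, so they overlapped. The dendritic cluster led by Fscn1 had 436 ± 14 CPM, near the tumor epithelium. Mast cell-like cells had 1234 CPM in the 1 tumor with enough of them, and fibroblast-like cells had 65.4 and 1087 CPM in 2 tumors. The Inhba cells were named from a marker list of Spp1, Arg1, Inhba, Vegfa, Thbs1 and Fabp5, but Spp1 itself was among the 10 leading genes of a C1q cluster and of neither Inhba cluster. A cluster of 4888 tumor cells with Ccl24 and Arg1 had 1677 ± 44 CPM of Mt1, and the other Inhba cluster (2149 tumor cells with Thbs1), whose C1q markers were raised more than those of its own list, had 735 ± 86 CPM. The range over tumors was 734 to 2567 CPM in Inhba macrophage-like and 884 to 1737 CPM in C1q macrophage-like cells, so those neighbors in the order overlapped. Of all Mt1 UMIs of a tumor, 26.8% came from tumor epithelial-like cells, 25.4% from C1q macrophage-like, 17.8% from Inhba macrophage-like and 11.6% from Ly6c monocyte-like cells. B cell-like cells were lowest with 22.4 CPM.

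Mt2 stood between these patterns. It was highest in fibroblast-like cells (322 CPM, 2 mice), then in Inhba macrophage-like cells (195 ± 33 CPM), tumor epithelial-like cells (154 ± 67 CPM) and C1q macrophage-like cells (135 ± 16 CPM), each overlapping the next over the tumors. In Ly6c monocyte-like cells, where Mt1 was high, Mt2 was 22.9 CPM, and in neutrophil-like cells it was 4.47 CPM. Tumor epithelial-like cells supplied 53.9% of the Mt2 UMIs of a tumor.

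In tumors the order of Slc30a1 levels began with C1q macrophage-like cells (29.1 ± 7.7 CPM) and Ly6c monocyte-like cells (26.0 ± 5.2 CPM), and Slc30a1 was low in tumor epithelial-like cells (6.45 ± 2.20 CPM). Mtf1 was highest in absorptive epithelial-like cells (45.1 ± 4.9 CPM) and lay between 4.71 and 22.7 CPM in the other classes.

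**Figure D2:**
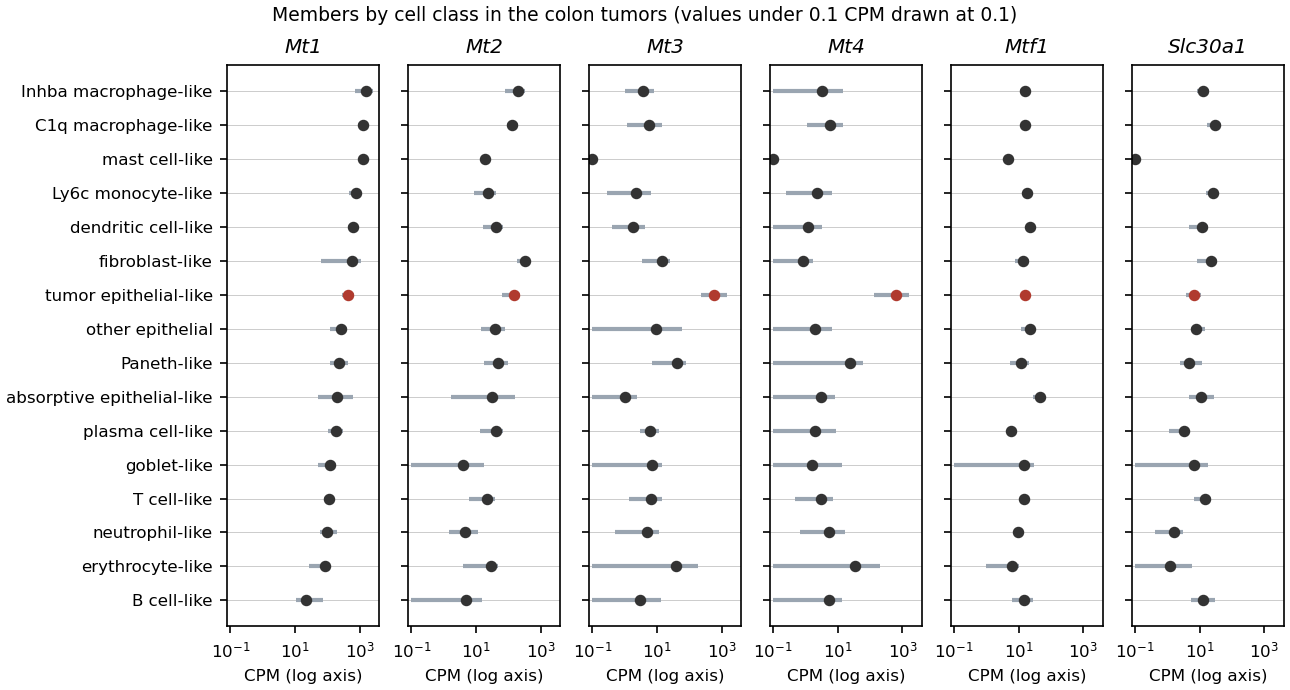
Level of each of the 6 genes by cell class, in CPM on a logarithmic axis. A point is the mean over mice, a bar runs from the lowest to the highest library, tumor epithelial-like cells are red, and values under 0.1 CPM are drawn at 0.1. Mt3 and Mt4 peak in tumor epithelial-like cells at 590 and 638 CPM, Mt1 peaks in Inhba macrophage-like cells at 1611 CPM.

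Within the tumor epithelium, Mt3 and Mt4 varied by cluster and by tumor. A cluster of 5072 tumor cells led by Mt4 and Ptn had 972 ± 333 CPM of Mt4 (mean ± SD over mice). A cluster of 5868 cells led by Gm26917 and Cldn4 had 157 ± 78 CPM, and a cycling cluster of 1811 cells with Onecut2 and Top2a had 141 ± 90 CPM. In the cluster led by Mt4, the Mt4 level ran from 233 CPM in tumor 6 over a median of 906 to 2186 CPM in tumor 1. Tumor 6 was the lowest of the 10 tumors in the first 2 of these clusters, with 25.3 CPM in the cluster led by Gm26917, where the highest was 319 CPM in tumor 8. All 10 tumors had the highest Mt4 in the cluster led by Mt4. Lead genes were ranked by level in these same cells, so nothing is read from that order.

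Mt3, also among the leading genes of the cluster led by Mt4, followed the same order of clusters, with 850 ± 343, 256 ± 130 and 139 ± 69 CPM. In the cluster led by Mt4 it ran from 474 CPM (tumor 10) over a median of 765 to 1879 CPM (tumor 1), and in the cluster led by Gm26917 from 98.3 (tumor 9) over a median of 296 to 464 CPM (tumor 3). Mt1 differed less across the 3 clusters, at 466 ± 112, 427 ± 119 and 317 ± 124 CPM, and so did Mt2, at 183 ± 64, 128 ± 69 and 91.8 ± 51.5 CPM. Median UMIs per cell were 21392, 6243 and 12638 in the 3 clusters, and the median share of mitochondrial UMIs was 4.16%, 13.2% and 10.4%. Their part in the order of the clusters was not tested.

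**Figure D3:**
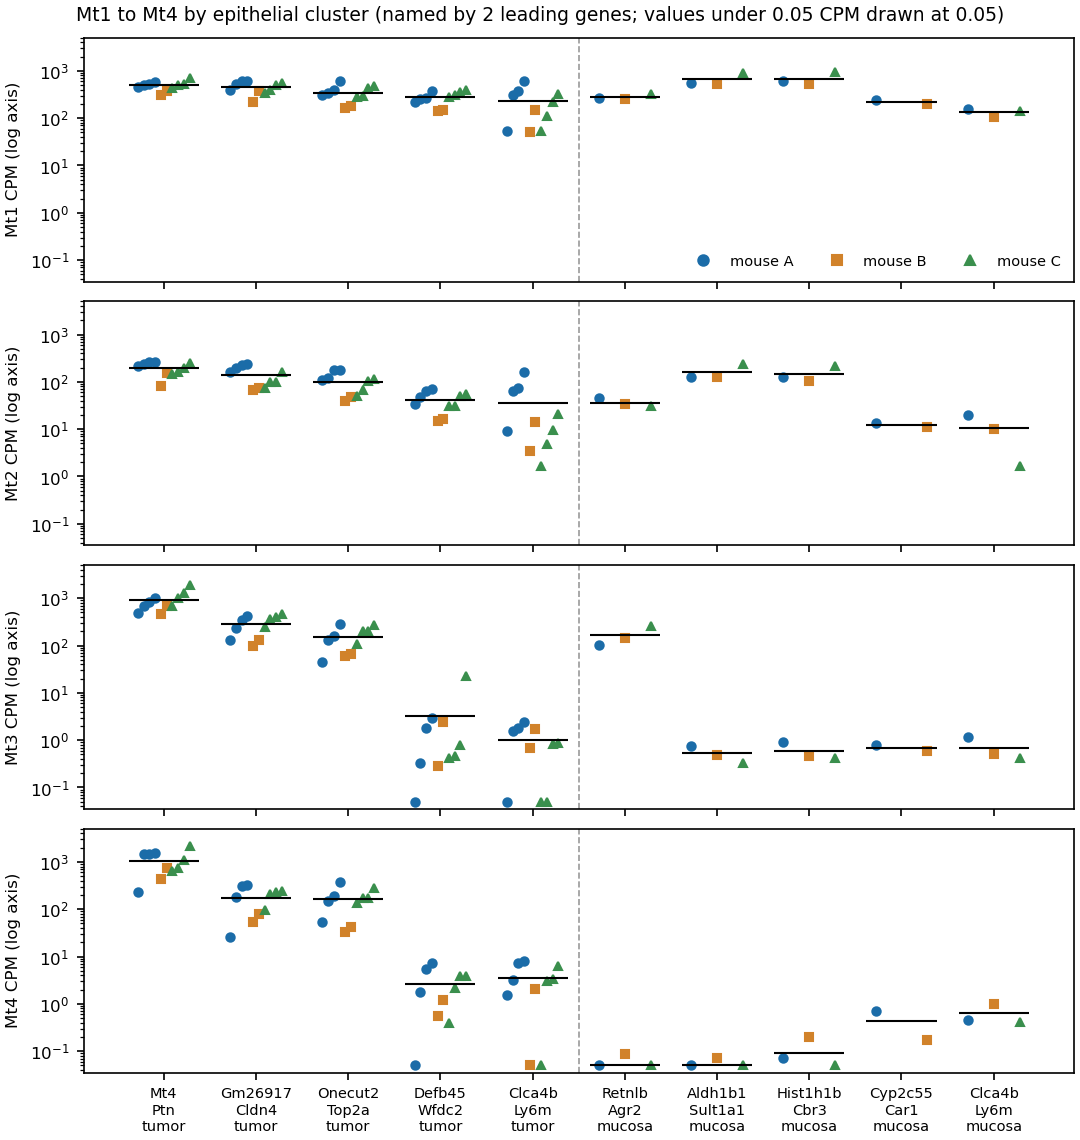
CPM of the metallothioneins in single epithelial clusters, on a logarithmic axis, 1 point per library, shapes for the mouse and a black line for the mean. Values under 0.05 CPM are drawn at 0.05. Mt4 lies at 233 to 2186 CPM in the tumor cluster led by Mt4, and Mt3 reaches 103 to 254 CPM in 1 mucosa cluster where Mt4 is at most 0.0861 CPM.

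To compare cells of unequal depth, cells were thinned to 1500 UMIs each, leaving out shallower cells (1, 221 and 4 of the 3 clusters). Mt4 was then detected in 29.7% of cells of the cluster led by Mt4, in 9.28% of the cluster led by Gm26917 and in 8.58% of the cycling cluster, against 49.2%, 16.6% and 25.1% before thinning. In neutrophil-like cells, which should lack it, the thinned share was 0.813% (1.45% before thinning, median 2597 UMIs per cell, 2349 cells left out). Mt3 was detected in 41.5%, 17.2% and 11.4% of thinned cells of the 3 clusters and in 0.809% of neutrophil-like cells. Mt3 and Mt4 were often found in the same cell. Of 12525 thinned tumor epithelial-like cells, 12.4% had a UMI of both, 13.7% of Mt3 alone and 5.00% of Mt4 alone. The product of the 2 shares is 4.57%, in cells pooled over the 10 tumors and 3 clusters.

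A low-depth cluster that took no name (median 1137 UMIs in its 901 tumor cells, 601 in its 452 mucosa cells) also had more Mt3 and Mt4 in tumors than in mucosa. It had 823 CPM of Mt3 and 855 CPM of Mt4 in tumors, against 13.8 CPM of Mt3 (8 UMIs) in mucosa and 0 UMIs of Mt4, where a count of 0 allows up to 3.

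Taken as a family, the metallothionein transcripts differed between the tissues in make-up as well as in sum. The shares take the 4 genes as counted equally well, which was not tested, and Mt2 reads that also match Pip5k1a were not examined. In mucosa epithelium the 4 genes summed to 524 ± 185 CPM (SD, n = 3), of which Mt1 made up 77.9%, Mt2 12.9%, Mt3 9.13% and Mt4 0.0903%. In tumor epithelial-like cells they summed to 1813 ± 809 CPM (mean ± SD over mice), with 26.8% Mt1, 9.13% Mt2, 31.6% Mt3 and 32.5% Mt4. In the cluster led by Mt4 the sum was 2472 CPM, and Mt3 and Mt4 made up 34.4% and 37.2% of it. Inhba macrophage-like cells had as large a sum as the tumor epithelium, 1814 CPM, but with 88.8% Mt1 and 10.8% Mt2.

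**Figure D4:**
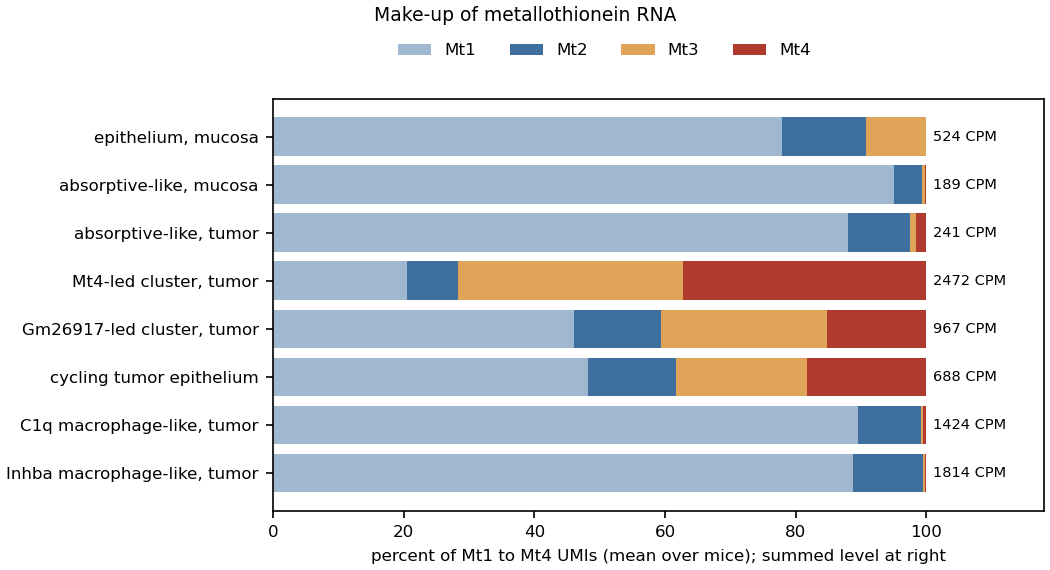
Share of Mt1, Mt2, Mt3 and Mt4 in their summed UMIs, in percent, as stacked bars (mean over mice) for mucosa epithelium, absorptive cells of both tissues, tumor epithelial clusters and macrophage-like cells, with the summed CPM at the right. Mt3 and Mt4 together fill most of the bar of the cluster led by Mt4 (34.4% and 37.2%), and Mt1 fills 77.9% of the bar of mucosa epithelium.

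In mucosa, the 6 genes were spread unequally over the epithelial clusters. Mt3 lay mainly in 1 cluster of 2955 mucosa cells with Retnlb, Agr2 and Spdef, at 254, 103 and 147 CPM in mucosa 1, 2 and 3. It was below 1.2 CPM in the clusters led by Aldh1b1, Hist1h1b, Defb45, Cyp2c55 and Clca4b in every mucosa sample with enough cells (the cluster led by Cyp2c55 had fewer than 20 from mucosa 1). Some other mucosa cells lay between these levels. An unnamed cluster with Ccn3 and Aqp8 had 165 CPM of Mt3 in its 112 cells of mucosa 1 (47 UMIs), enteroendocrine-like cells, whose cluster also had the tuft cell genes Dclk1 and Sh2d6 among its 10 leading genes, had 18.2 to 35.1 CPM and goblet-like cells 5.99 to 42.5 CPM. After thinning, 19.6% of cells of the cluster with Retnlb had Mt3 (64.6% before), and 24.3% of the cluster with Ccn3 (31.6% before). Mt4 was at most 0.0861 CPM in that cluster.

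Mt1 and Mt2 were highest in other mucosa cells. The cluster led by Aldh1b1 had 920, 562 and 536 CPM of Mt1 in mucosa 1, 2 and 3, and the cycling cluster led by Hist1h1b had 928, 612 and 524 CPM. In the absorptive cluster led by Clca4b, which carries markers of surface colonocytes, Mt1 was 141, 157 and 108 CPM. Mt2 was 239, 126 and 124 CPM in the cluster led by Aldh1b1 and 1.66, 19.8 and 9.85 CPM in that led by Clca4b. In each mucosa sample both genes were thus lower in the cluster led by Clca4b than in that led by Aldh1b1. Low levels were not particular to absorptive cells, since goblet-like cells of mucosa had 120 ± 43 CPM of Mt1 and 5.14 ± 3.76 CPM of Mt2, and the enteroendocrine-like cluster 141 ± 36 CPM of Mt1. Mucosa 1 was the highest of the 3 samples for Mt1 in the clusters led by Aldh1b1 and Hist1h1b.

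Between the absorptive clusters and those led by Aldh1b1 and Hist1h1b, Slc30a1 ran the other way. In goblet-like cells of mucosa, where Mt1 and Mt2 were low, it was low too (2.72 ± 1.03 CPM). It was 54.4, 27.4 and 43.7 CPM in the cluster led by Clca4b, and 56.0 and 72.6 CPM in the absorptive cluster led by Cyp2c55 in mucosa 2 and 3. In the clusters led by Aldh1b1 and Hist1h1b it was 3.28 to 6.00 CPM. Absorptive cells supplied 59.0% of the Slc30a1 UMIs of mucosa. Mtf1 was also high in the cluster led by Clca4b (49.8, 44.0 and 52.3 CPM), against 14.5 to 16.7 CPM in the clusters led by Aldh1b1 and Hist1h1b.

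Absorptive cells were found in both tissues, and over this class as a whole Slc30a1 was lower in every tumor. Slc30a1 in absorptive epithelial-like cells ran from 4.53 CPM (tumor 6) over a median of 8.36 to 28.4 CPM (tumor 7) in tumors. It was 56.5, 48.6 and 65.3 CPM in mucosa 1, 2 and 3. All 10 tumors were below all 3 mucosa samples, with 136 UMIs in tumors and 1979 in mucosa, and the log2 fold change was -2.32 (SE 0.37). Here 4 of the 6 genes passed the filter on low counts, without Mt3 and Mt4, and 16.7% of the 7816 genes tested did not overlap between the tissues (8.12% with tumors lower). Tumor absorptive cells all belonged to the cluster led by Clca4b. Of the 3219 mucosa cells of the class, 2259 belonged to the cluster led by Cyp2c55, which had 0 tumor cells. Within the shared cluster led by Clca4b, Slc30a1 was 11.9 ± 7.6 CPM in tumors and 41.8 ± 13.6 CPM in mucosa. The ratio per UMI was 0.278 (95% interval 0.228 to 0.338) and the log2 fold change -1.92 (SE 0.39). There 1 of 10 tumors was above its own mucosa, tumor 7 with 28.4 CPM against 27.4 CPM in mucosa 2. The neutrophil markers summed to 510 to 3298 CPM in absorptive cells of tumors and 53.2 to 154 CPM in those of mucosa, and their part in the Slc30a1 level was not tested. The median share of mitochondrial UMIs in the cluster led by Clca4b was 11.6% in tumors and 6.79% in mucosa. With cells limited to 10% mitochondrial UMIs, Slc30a1 in absorptive cells was 9.35 CPM in tumors and 43.0 CPM in mucosa.

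Mt1 and Mt2 in absorptive cells varied widely among tumors. Mt1 ran from 51.0 CPM (tumor 9) over a median of 188 to 620 CPM (tumor 5), around the 140, 223 and 174 CPM of mucosa 1, 2 and 3. Mt2 ran from 1.64 (tumor 3) over a median of 11.7 to 165 CPM (tumor 5), against 9.10 ± 6.85 CPM in mucosa. For both genes the tissues overlapped.

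Lymphocytes were compared in a cluster of T cell-like cells with Il17a, Icos and Tnfrsf4 (5016 tumor and 427 mucosa cells), because different clusters held most of the T cell-like cells of tumors and of mucosa. None of the T cell markers was among the 10 leading genes of the cluster, although all 7 were raised, and 1 marker of natural killer or innate lymphoid cells (Rora) was, so such cells may be mixed in. Mt1 ran from 85.8 over a median of 107 to 136 CPM in tumors and was 33.3, 83.6 and 22.1 CPM in mucosa, so all tumors were above all mucosa samples. The ratio per UMI was 2.84 (95% interval 2.08 to 3.97, from 2126 and 41 UMIs), and the log2 fold change was 1.67 (SE 0.26). Slc30a1 ran from 6.80 over a median of 13.2 to 22.4 CPM in tumors, with 2, 0 and 1 UMIs in mucosa. Its ratio per UMI was 5.14 with a 95% interval of 1.74 to 25.1. In this cluster 17.4% of the 9402 genes tested did not overlap between the tissues (6.15% with tumors higher). A further lymphocyte cluster with cells of both tissues took no name, as its T cell and natural killer markers were raised alike (2426 tumor and 455 mucosa cells, with Xcl1 and Klre1). Its Mt1 was 28.7 ± 11.4 CPM in tumors and 29.5 ± 19.8 CPM in mucosa, with 4 of 10 tumors above their own mucosa. Slc30a1 in that cluster was 13.9 ± 7.1 CPM in tumors and 3.06 ± 3.28 CPM in mucosa (110 and 4 UMIs), and the tissues overlapped.

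B cell-like cells had the opposite order for Mt1. It was 23.7 ± 17.5 CPM in tumors and 80.8 ± 43.5 CPM in mucosa, and all 10 tumors were below their own mucosa, with 199 and 197 UMIs and a ratio per UMI of 0.284 (95% interval 0.232 to 0.347). Erythrocyte-like cells had 70.7 ± 42.9 CPM of Mt1 in tumors and 68.3 ± 28.0 CPM in mucosa. The part of free RNA in Mt1 levels this low was not tested. Slc30a1 in B cell-like cells was 12.9 ± 7.0 CPM in tumors and 4.03 ± 2.05 CPM in mucosa, from 166 and 11 UMIs. Dendritic cell-like cells had 608 ± 110 CPM of Mt1 in tumors and 192 ± 74 CPM in mucosa, where the value rests on 95 UMIs in 81 cells. The tissues differed in the clusters of this class. A cluster led by Siglech had 27.9 CPM of Mt1 in tumors, against 764 CPM in the cluster led by Ifi205, and it held 28 of the mucosa cells but 340 of the tumor cells of the class, of which 3657 were counted.

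The choice of the 6 genes did not use the mouse, so their levels in tumor epithelial-like cells were tested between the 3 mice by exact two-sided permutation of the F statistic of log2(CPM + 1) over 3150 arrangements, adjusted over the 6 genes. The smallest p this design allows is 0.000635. Mt2 differed between mice, with means of 217, 83.7 and 162 CPM in mice A, B and C (exact permutation, p = 0.00190, adjusted p = 0.00571). Slc30a1 differed too, with 8.77, 6.19 and 4.40 CPM and the same p-values. Mt1 had 502, 283 and 506 CPM (exact permutation, adjusted p = 0.0352), and Mt3 had 517, 288 and 966 CPM (exact permutation, adjusted p = 0.0352). Mt4 did not pass (755, 275 and 886 CPM, exact permutation p = 0.330), and neither did Mtf1 (15.5, 16.9 and 14.1 CPM, exact permutation, adjusted p = 0.0983).

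Mouse B had the lowest mean of all 4 metallothioneins, and it rests on tumors 9 and 10. Without tumor 10 the adjusted p was 0.105 for Mt2, 0.190 for Mt1 and 0.159 for Mt3 (exact permutation). Leaving out tumor 9 or 10 leaves 1 tumor in mouse B, and the spread within mice then comes from mice A and C alone. Without tumor 6 it was 0.0381 for Mt4. The call of Mt1 was also lost without tumor 2, 4, 5, 8 or 9, that of Mt3 without tumor 1, 2, 4, 5 or 7, and Mtf1 passed without tumor 6 or 9. The cluster led by Mt4 made up 48.4% to 50.6% of tumor epithelial-like cells in the tumors of mouse C, 27.3% to 43.3% in mouse A and 20.6% to 21.7% in mouse B. Within that cluster alone, the adjusted p was 0.0317 for Mt2, 0.0190 for Slc30a1, 0.0333 for Mt1, 0.113 for Mt3, 0.0210 for Mtf1 and 0.630 for Mt4 (exact permutation). Within the cluster led by Gm26917 it was 0.0305 for Mt2, 0.106 for Slc30a1, 0.106 for Mt1 and 0.0990 for Mt3, and 0.373 for both Mtf1 and Mt4 (exact permutation), so Mt2 was the one gene called within both clusters. Mouse, age and any handling shared by the tumors of a mouse cannot be told apart.

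Next, the transporters and regulators around the metallothioneins were tested with edgeR in the epithelial sums, with p-values adjusted over all 15484 genes by the Benjamini-Hochberg method. The fit took the libraries as independent, although tumors of a mouse share the animal, so its p-values do not measure the spread between mice. Of these genes 64.6% were called, 33.9% higher and 30.7% lower in tumors, so a call by itself is common here. The median log2 fold change over all genes was 0.04. The gene lists below were chosen with earlier results of these data known. Their p-values and counts of calls therefore describe these data and are no independent support.

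Of the zinc exporters of the Slc30 family other than Slc30a1, 6 of 9 passed the filter, 2 were called higher and 4 lower (2 and 2 without TMM), with a median of -0.57. Of those tested, Slc30a2, a vesicular zinc exporter, had the largest change. It ranged from 19.7 (tumor 10) to 99.2 CPM (tumor 8), with a mean of 70.2 ± 25.2 CPM in tumors, against 0.170, 0.618 and 0.889 CPM in mucosa 1, 2 and 3. No library of one tissue overlapped the other, and the log2 fold change was 6.64 (SE 0.60, edgeR adjusted p = 1.57e-06). The ratio per UMI was 119 (95% interval 99.7 to 143, from 19678 and 125 UMIs). By class, Slc30a2 had 86.6 CPM in tumor epithelial-like cells and 50.4 CPM in Paneth-like cells, and at most 5.87 CPM in the other classes of the tumors. Slc30a7 and Slc30a6, exporters of the secretory pathway, were lower by edgeR, with log2 fold changes of -0.89 (SE 0.11, adjusted p = 1.86e-05) and -0.83 (SE 0.13, adjusted p = 0.000128). The levels of Slc30a7 were 18.0 ± 0.7 CPM in tumors and 27.5 ± 7.1 CPM in mucosa. Slc30a10 did not pass the filter and was not tested. It had 8, 645 and 1149 UMIs in mucosa 1, 2 and 3 (0.136, 8.86 and 14.6 CPM). No tumor had more than 7 UMIs or 0.182 CPM of it.

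Of the 14 zinc importers of the Slc39 family, 13 were tested, 3 were called higher and 5 lower (3 and 4 without TMM), with a median of -0.28. Slc39a5, an importer of the basolateral membrane, fell from 35.0 ± 11.7 CPM in mucosa to 4.82 ± 3.04 CPM in tumors (log2 fold change -3.12, SE 0.49, edgeR adjusted p = 0.000108). Slc39a6 rose from 1.18 ± 0.04 to 9.80 ± 2.48 CPM (2.76, SE 0.25, edgeR adjusted p = 1.49e-06), and Slc39a11 fell by 1.46 (SE 0.19, edgeR adjusted p = 2.01e-05). Slc39a4, the main importer of dietary zinc at the apical membrane, was 59.9 ± 14.9 CPM in tumors and 69.8 ± 31.3 CPM in mucosa and did not pass (edgeR adjusted p = 0.110).

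**Figure D5:**
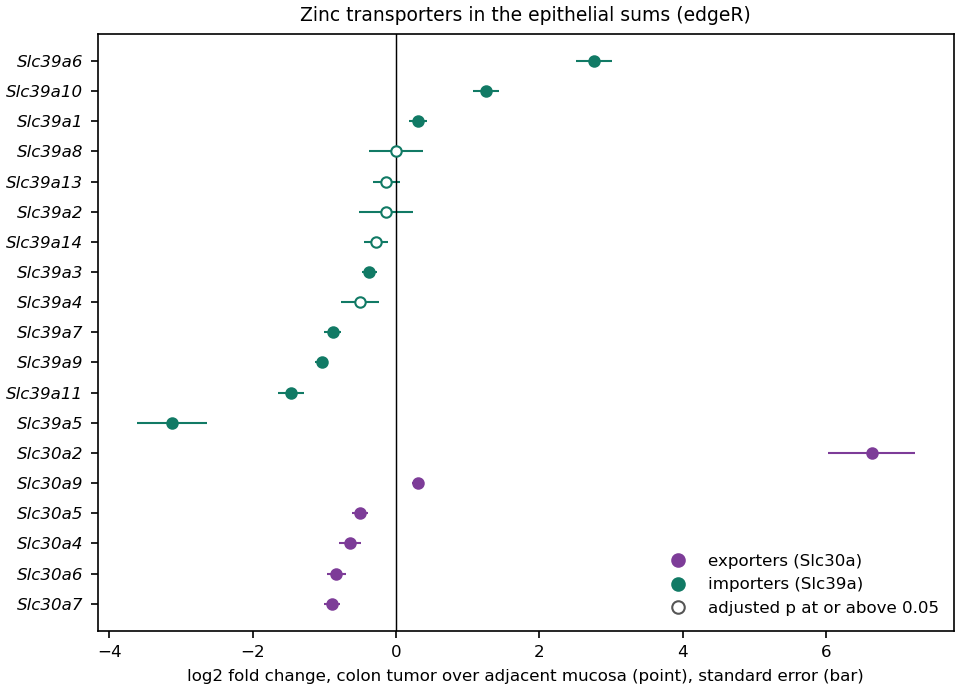
Log2 fold change, tumor over mucosa, of the tested zinc exporters and importers in the epithelial sums, with bars of 1 SE, derived from the F statistic of the fit. Open points have an edgeR adjusted p of 0.05 or more. Slc30a2 stands at 6.64 and Slc39a5 at -3.12.

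Copper handling genes were called higher in 6 and lower in 5 of 12 cases (6 and 3 without TMM), with a median of 0.13. Steap4, a metalloreductase, rose from 2.21 ± 0.37 to 13.5 ± 5.0 CPM (log2 fold change 2.34, SE 0.36, edgeR adjusted p = 8.19e-05). The copper pump gene Atp7b had a log2 fold change of 2.39 (SE 0.54, edgeR adjusted p = 0.00163) at under 1.1 CPM in all libraries, and Sco1, a copper chaperone of mitochondria, had -1.19 (SE 0.15, edgeR adjusted p = 2.02e-05).

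Of 17 genes of NRF2 and oxidative stress, 3 were called higher and 10 lower, with a median of -0.52, but 4 higher and 4 lower without TMM. Slc7a11, the cystine transporter, rose from 1.94 ± 0.54 to 32.0 ± 9.0 CPM (log2 fold change 3.75, SE 0.31, edgeR adjusted p = 7.68e-07). Hmox1, heme oxygenase 1, rose (1.96, SE 0.28, edgeR adjusted p = 4.27e-05), while Nqo1, a typical NRF2 target, fell by 2.97 (SE 0.44, edgeR adjusted p = 6.16e-05).

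Genes listed as glucocorticoid-induced were called higher in 2 and lower in 5 of 8 tested (2 and 4 without TMM), with a median of -0.73. The list also counts Nr3c1, the gene of the glucocorticoid receptor itself, and Hsd11b2. Both were among those called lower with either scaling, so the counts are not of induced targets alone. Fkbp5, a chaperone of the glucocorticoid receptor, fell from 39.1 ± 18.6 to 7.51 ± 2.43 CPM (log2 fold change -2.67, SE 0.28, edgeR adjusted p = 4.51e-06). Hsd11b2, which inactivates glucocorticoid, fell from 147 ± 4 to 21.1 ± 13.3 CPM (-3.06, SE 0.45, edgeR adjusted p = 6.38e-05). Dusp1, which also answers to stress, rose by 2.42 (SE 0.29, edgeR adjusted p = 1.38e-05).

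Of 15 genes known to rise with dissociation stress, 13 were called higher and none lower (15 higher without TMM), with a median of 1.76, and tissue and dissociation cannot be told apart. Hspa1a rose by 4.17 (SE 0.85, edgeR adjusted p = 0.000746), Atf3 by 3.73 (SE 0.27, edgeR adjusted p = 2.97e-07) and Ier3 by 3.19 (SE 0.20, edgeR adjusted p = 1.38e-07). The part of this response in the metallothionein levels was not tested. In absorptive cells, where 28.8% of genes were called (14.5% higher), 7 of the 15 were higher and none lower. In the T cell-like cluster, where 12.8% of genes were called and 7.96% were higher (748 higher and 459 lower, or 450 higher and 986 lower without TMM), 10 of the 15 were higher (6 without TMM). Of the 8 genes of the glucocorticoid list tested in that cluster, 4 were higher and none lower (3 and none without TMM). The receptor gene Nr3c1 was among those higher. The median of the list was 0.99 there beside 0.05 over all genes, while its median in the epithelial sums was negative. None of the tested zinc exporters of the list was called in either of those cells (0 of 5 and 0 of 4).

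The genes around the metallothionein row were tested as well. Of 7 tested neighbors on chromosome 8, 3 were called higher and 1 lower, with a median of 0.06, or 5 higher and 1 lower without TMM, and 1 higher and 1 lower without mucosa 3. Herpud1, of the endoplasmic reticulum stress response, fell by 1.19 (SE 0.19, edgeR adjusted p = 0.000127). Bbs2 rose by 0.97 (SE 0.26, edgeR adjusted p = 0.00548), with 1.83 to 2.43 CPM in mucosa and 3.01 to 7.41 CPM in tumors, and Slc12a3 by 0.90 (SE 0.34, edgeR adjusted p = 0.0303) at 1.33 ± 0.49 CPM in tumors.

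Without the tumor epithelial-like clusters, 35.0% of genes were called (17.8% higher and 17.2% lower). The zinc exporters then had 2 genes higher and 1 lower of 6 tested, and the importers 3 higher and 1 lower of 13. The glucocorticoid list had 1 higher and 3 lower of 8. Slc30a7, Slc39a11, Sco1 and Herpud1 were no longer called (edgeR adjusted p = 0.498, 0.838, 0.0988 and 0.417) and the log2 fold change of Bbs2 turned to -0.26. Slc12a3 was no longer called without mucosa 2 or without mucosa 3 (edgeR adjusted p = 0.0847 and 0.113).

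Finally, the genes most like each of the 6 were looked up over 23 combinations of class and tissue, by Pearson's r of mean log2(CPM + 1) among 13497 genes. These values describe the classes and carry no test, since classes share libraries. Mt4 was most like Ptn (r = 0.970), followed by Wnt6 (0.952), Gm45336, Dkk2 and Sox17. These values rest largely on the tumor epithelial-like cells, since in most other combinations Mt4 was at levels from which no expression is read. Mt3 was most like Lamb2 (r = 0.873), Bex1, Ninl, Cep112 and Tnfrsf19. Mt1 was most like Smpdl3b (r = 0.890), Sh3pxd2b, Slc7a8, P2ry6 and Guca1a. Mt2 was nearest to Mfge8 (r = 0.814), Rnf180, Uhrf1bp1, Iqgap3 and Abcc1. Mtf1 was nearest to Ogfr, Xiap, Map4, Pptc7 and Mapk1ip1l, and Slc30a1 to Daglb, Secisbp2l, Specc1l, Atp2b1 and Hps5. Among the metallothioneins, r was 0.740 for Mt1 with Mt2, 0.6247 for Mt3 with Mt4, 0.461 for Mt2 with Mt3, 0.433 for Mt2 with Mt4, 0.240 for Mt1 with Mt4 and 0.111 for Mt1 with Mt3.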

How the data were processed

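Single-cell RNA sequencing (Chromium 3′ v3.1) was analysed for 10 tumors and 3 mucosa samples of 3 mice. The authors deposited UMI counts per gene and barcode for each library, made with Cell Ranger 6.0.0 on mm10 per the processing notes in the labels. The study's methods name another version, with default settings. The annotation is not given in the sources used here. The 6 genes and the 7 pathway lists (84 genes) were chosen with earlier results of these data known.

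Barcodes with at least 500 UMIs, 200 genes and at most 25% mitochondrial UMIs were kept (18699 failed), and 10392 with the highest simulated doublet scores (0.8% per 1000 barcodes) were removed. Cells were scaled to 10000 UMIs and clustered (Leiden, resolution 1, 2000 variable genes without the 6 genes and the list genes, 30 components, 20 neighbors, seed 11) into 39 clusters, which were named "-like" from marker lists. Only clusters and classes with at least 20 cells in a library entered. UMI counts were summed per library and class, and tumor and mucosa were compared with the quasi-likelihood test of edgeR 4.0.16 (TMM, filterByExpr, Benjamini-Hochberg threshold 0.05), tested on simulated data. The epithelial sums held 21.9 to 39.1 M UMIs in tumors and 58.7 to 78.7 M in mucosa, so mucosa values rest on more counts. Intervals of 95% cover counting error only. Members between mice were compared by exact permutation on log2(CPM + 1). The T cell-like class was replaced by 1 cluster after the data were seen.

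The genes named were the 6 members, the 3 called genes of each list with the largest change in the epithelial sums, and the 5 genes most like each member among those reaching 5 CPM. Slc39a4 was added after its values were seen. Tumors and mucosa of 1 animal, named by the animal code in the titles, are paired. Across genes, the correlation of their deviations was 0.199 for mouse A, 0.0941 for mouse B and 0.221 for mouse C. The alternatives were other scaling, filters, cell limits, a replicate block, DESeq2 1.42.0, thinning depth, pooling and leaving out each library. Analyses ran in R 4.3.3 and Python 3.11.15 (numpy 2.4.6, scipy 1.17.1, pandas 2.3.3, scikit-learn 1.9.0, igraph 0.11.9, leidenalg 0.10.2). Some items are not reported here.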

Additional observations from a re-analysis of the deposited data

Results flagged for a closer look

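In 8 of 64 groups of 4 to 10 tumors 1 sample lay far from the others, where chance gives about 3.2 for independent groups. The groups share libraries and cells, so no excess over chance is read from this count. Mt1 in B cell-like cells of tumor 6 was 71.7 CPM (18 UMIs), and the next tumor had 27.5 CPM. Slc30a1 in B cell-like cells of tumor 8 was 29.2 CPM (17 UMIs), with 17.3 CPM in the next. Mt2 in absorptive epithelial-like cells of tumor 5 was 165 CPM (70 cells), with 72.8 CPM in the next. In erythrocyte-like cells of tumor 4, Mt3 was 189.9 CPM and Mt4 was 198 CPM (268 and 279 UMIs in 141 cells), with 24.0 and 8.64 CPM in the next of 4 tumors. Mt1 in neutrophil-like cells of tumor 1 was 198 CPM (1684 UMIs in 3248 cells), with 122 CPM in the next. Mt3 in other epithelial cells of tumor 1 was 60.6 CPM (25 UMIs in 26 cells), with 15.8 CPM in the next. Slc30a1 in other epithelial cells of tumor 5 was 14.8 CPM (42 UMIs), with 9.77 CPM in the next.

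In some cells every tumor was below its own mucosa and in others every tumor was above it, and these differences between cells were not tested. The log2 ratio of mean Mt1 CPM, tumor over mucosa, was -1.77 in B cell-like cells, 1.66 in dendritic cell-like cells, 1.12 in plasma cell-like cells and 1.22 in the T cell-like cluster with Il17a. In dendritic cell-like cells a cluster led by Siglech, with 27.9 CPM of Mt1 in tumors, held 28 of 81 mucosa cells and 340 of 3657 tumor cells, so the tissues differed in mix. For Slc30a1 it was -2.26 in absorptive epithelial-like cells, 2.72 in that T cell-like cluster and 0.85 in the epithelial cluster led by Defb45. In the absorptive cluster led by Clca4b alone, the log2 ratio of Slc30a1 was -1.815, with 1 of 10 tumors above its own mucosa.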

How the results depend on the processing

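Tumor number per mouse (4, 2 and 4) and 3 mucosa samples limit all comparisons, and mucosa libraries were deeper than tumor libraries. Without the tumor epithelial-like clusters, genes called in the epithelial sums went from 9997 to 4519 and the log2 fold change of Bbs2 from 0.97 to -0.26. Without TMM the split of calls in the epithelial sums was 7102 higher of 10179 (69.8%) in place of 5251 of 9997 (52.5%), and the log2 fold change of Mtf1 was -0.10. In absorptive cells 2249 calls became 3398 with no filter on low counts, where more genes were tested, and 1358 to 2362 when a library was left out (1494 without mucosa 2, 1358 without mucosa 3). In the T cell-like comparison 1207 calls became 663 to 1460 (722 without mucosa 1, 663 without mucosa 3). Leaving out a mucosa sample gave pooled ratios of 7.91 to 24.9 for Mt3 and 1099 to 2978 for Mt4, and without 1 mucosa cell the ratio of Mt4 was 2733, an alternative chosen after seeing the data.

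Between mice, the adjusted p (exact permutation) under a limit of 10% mitochondrial UMIs was 0.0564 for Mt1, 0.0564 for Mt3 and 0.0229 for Mtf1. Within the cluster led by Gm26917 it was 0.106 for Mt1, 0.0990 for Mt3 and 0.106 for Slc30a1, and within the cluster led by Mt4 it was 0.113 for Mt3 and 0.0210 for Mtf1. Leaving out 1 tumor gave adjusted p-values (exact permutation) of 0.0254 to 0.190 for Mt1, 0.00476 to 0.105 for Mt2, 0.0175 to 0.159 for Mt3, 0.0381 to 0.622 for Mt4 and 0.0286 to 0.389 for Mtf1. The cause of these changes was not tested. With the mouse as a replicate block, 10243 genes were called in epithelial sums, 2165 in absorptive cells, 1228 in the T cell-like comparison and 64 of the pathway genes (62 without it), and the block changed no other call by the limits used here.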
